A study of Mus musculus with 6 samples.

Results

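Dentate granule cells are the principal excitatory neurons of the dentate gyrus, the input field of the hippocampus, and their mossy fibre axons contact CA3 pyramidal cells and hilar mossy cells. Mature granule cells can be told from the pyramidal cells of CA1 and CA3 by a set of marker transcripts. The 8 markers described here are the transcription factor gene Prox1, the genes Dsp and Pdzd2 for structural proteins, Calb1 and Stxbp6 for proteins of calcium buffering and vesicle fusion, and Tdo2, Lct and Plk5, which encode enzymes or an enzyme relative. They were chosen by name as known granule cell markers, with earlier results of these data known. All 8 were found by identifier among the 55471 genes of the count table. Several are not exclusive to granule cells: Calb1 is also expressed by some CA1 pyramidal cells and interneurons, and Prox1 by some interneurons.

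RNA-seq of the hippocampus was available for 3 control and 3 p300-ifKO male C57BL/6 mice, with 1 mouse per library. The p300-ifKO mice carried floxed Ep300, the gene for the acetyltransferase p300, and Camk2a-creERT2, a tamoxifen-inducible Cre recombinase whose promoter is active in excitatory forebrain neurons, granule cells included. All mice were 3 to 6 months old, and tamoxifen, dissolved at 20 mg/ml in corn oil, was given 5 times to both groups. Control littermates lacked creERT2 according to the protocol, but the driver is named in the labels of the 3 control libraries as well. Interneurons, glia and vessels of the p300-ifKO hippocampus keep an intact Ep300 gene, and RNA was extracted from whole hippocampal tissue, so that fewer granule cells and less RNA per granule cell cannot be told apart in these libraries.

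Total counts were between 23151568 and 28433823 per library. Counts were divided by the DESeq2 size factor of their library to give normalized counts. For Ep300 these were 1545, 1474 and 2334 in control against 478, 1350 and 912 in p300-ifKO mice, here and throughout in the order of mice 1, 2 and 3. The log2 difference of −0.97 did not pass the test (adjusted p 0.991 in DESeq2), although the groups did not overlap, and p300-ifKO mouse 2 lay closest to control. According to the paper, p300-ifKO mice express a truncated p300, and p300 immunostaining was lost where the driver is expressed. Counts over the whole Ep300 gene in whole tissue thus do not measure the loss of the protein. Esr1, part of whose sequence is in creERT2, had between 87.2 and 109 normalized counts in control and between 2416 and 4217 in p300-ifKO mice. It was thus 31.2-fold higher in p300-ifKO mice, with no overlap. The paper describes higher Esr1 as a feature of Camk2a-creERT2 mice. No control library reached the p300-ifKO range, although the control labels name the driver. The libraries also differed by gene length. Across 17054 genes, Spearman's rho between exonic length and a gene's deviation from its mean over the 6 libraries was 0.18, 0.16 and 0.41 in control mice and −0.51, 0.42 and −0.28 in p300-ifKO mice, so that long transcripts were relatively low in p300-ifKO mice 1 and 3.

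All 8 markers were well detected, with the lowest raw count, 178, for Tdo2 in control mouse 3. No marker passed an adjusted p under 0.05 in DESeq2, where the adjusted p was 0.991 for each, and 2 of 32773 genes across the table (0.0061%) did. The edgeR quasi-likelihood test, adjusted in the same way, also called 0 of 8, as did limma-voom, and each called 2 of 17131 genes. Both had 2 of 8 at an unadjusted p under 0.05, for which their share over all genes was not computed. At an unadjusted p under 0.05 in DESeq2 there were 2 of 8, Pdzd2 lower and Plk5 higher in p300-ifKO mice. This compares with 1.32% of all genes tested and 2.33% of the 12252 genes with a mean of at least 100 normalized counts. Of the 8 markers, 2 had a positive and 6 a negative log2 fold change, with a median of −0.082. Over all genes tested the median was −0.046, with 17932 of 32773 negative. Over the genes with a mean of at least 100 normalized counts it was −0.0043, with 6208 of 12252 negative. The markers spanned log2 fold changes from −0.45 to 0.53, and thus did not shift together. Other fits are named below where they moved a value most or turned its direction. They left out 1 mouse, added 1 surrogate variable or used offsets that remove the trend of each library with exonic length and GC content. The surrogate variable is a pattern across libraries. It was estimated from genes with a mean above 10 normalized counts, by a model that held the genotype labels.

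**Figure D1:**
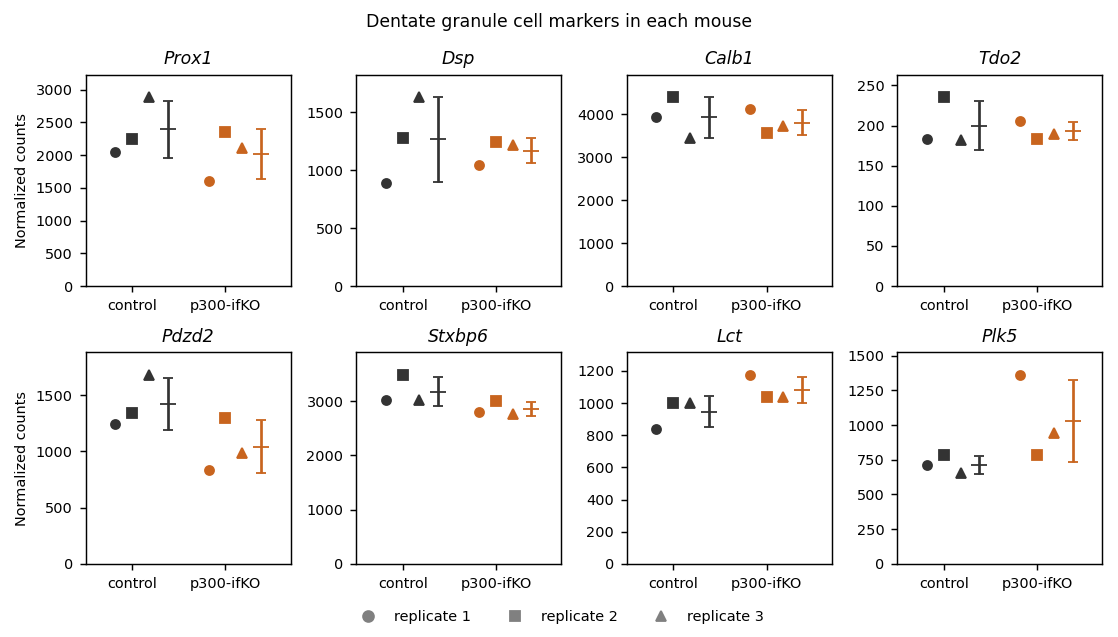
Normalized counts of the 8 dentate granule cell markers in each mouse, with control mice in black, p300-ifKO mice in orange and the symbol giving the replicate number. The bar beside each group is its mean ± SD (n = 3), and each axis starts at 0. Plk5 and Lct lie higher in every p300-ifKO mouse than in any control mouse and Stxbp6 lies lower, whereas the other 5 markers overlap.

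Prox1 (ENSMUSG00000010175, chromosome 1, 190118035 to 190170714 on the minus strand of GRCm38) encodes a homeobox transcription factor that specifies granule cells and maintains their identity. It had 2042, 2250 and 2883 normalized counts in control against 1604, 2357 and 2101 in p300-ifKO mice. Control mouse 3 was highest and p300-ifKO mouse 1 lowest, and the other four mice overlapped between the groups. The means were 2392 ± 438 and 2021 ± 383 (SD, n = 3), a difference smaller than the SD of the control mice. On the log2 scale the change was −0.24 (SE 0.20, unadjusted p 0.221 in DESeq2). It was −0.37 without p300-ifKO mouse 2, −0.10 without p300-ifKO mouse 1 and −0.084 without control mouse 3, so its size depended on single libraries. With 1 surrogate variable it was −0.014, and with length and GC offsets −0.10. Exons of the antisense gene Prox1os overlap 1.59% of its exonic bases. Since no strand setting is stated for the counting, whether reads there were told apart by strand is not known.

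Dsp (ENSMUSG00000054889, chromosome 13, 38151294 to 38198577 on the plus strand) encodes desmoplakin, which anchors intermediate filaments to desmosomes. The control mice had 892, 1273 and 1629 normalized counts and the p300-ifKO mice 1045, 1241 and 1217. Control mouse 1 was lowest and control mouse 3 highest of all 6, so that the p300-ifKO mice lay inside the control range. The log2 fold change was −0.11 (95% interval −0.55 to 0.32). Its direction was not stable: it was 0.11 without control mouse 3, and −0.31 without control mouse 1. It was 0.054 with 1 surrogate variable and 0.0041 with length and GC offsets. An antisense gene, Gm10129, overlaps 5.17% of the exonic bases of Dsp.

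Pdzd2 (ENSMUSG00000022197, chromosome 15, 12359711 to 12739924 on the minus strand) encodes a large scaffold protein with several PDZ domains, which bind the ends of partner proteins. It had 1245, 1336 and 1678 normalized counts in control against 838, 1300 and 985 in p300-ifKO mice. Mice 1 and 3 of the p300-ifKO group were below every control mouse, whereas mouse 2 lay between control mice 1 and 2. The means were 1420 ± 228 and 1041 ± 236 (SD, n = 3). This gave a log2 fold change of −0.45 (SE 0.21), a 26.7% lower level, with an unadjusted p of 0.0291 in DESeq2. Both the highest and the lowest mouse, control mouse 3 and p300-ifKO mouse 1, were the same as for Ep300, which is also a long transcript.

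Plk5 (ENSMUSG00000035486, chromosome 10, 80356459 to 80365489 on the plus strand) encodes a member of the polo-like kinase family. The control mice had 712, 781 and 651 normalized counts and the p300-ifKO mice 1360, 786 and 945. Mouse 1 of the p300-ifKO group stood far above the rest, and mouse 2, at 786, was only just above control mouse 2, at 781. Thus the groups did not overlap but nearly touched. The means were 715 ± 64.8 and 1030 ± 296 (SD, n = 3), and the p300-ifKO mice varied more than the control mice, with coefficients of variation of 28.8% and 9.07%. Its log2 fold change was 0.53 (SE 0.22, unadjusted p 0.0157 in DESeq2), equal to a 1.44-fold level.

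The calls for Pdzd2 and Plk5 turned on p300-ifKO mouse 2, the mouse with the most Ep300 counts in its group. It was also the only mouse of that group with a positive length trend (rho 0.42, against −0.51 and −0.28 in mice 1 and 3). Pdzd2 and Plk5 are the longest and the shortest of the markers. The part of either feature in the calls was not tested. Without p300-ifKO mouse 2, the Pdzd2 log2 fold change was −0.64 (adjusted p 0.0216 in DESeq2) and that of Plk5 0.69 (adjusted p 0.0212 in DESeq2). Thus 2 of 8 markers passed, while 926 of 32019 genes (2.89%) passed across the table. Among the 11726 genes that DESeq2 gave an adjusted p in that fit, the share was 7.9%. Without p300-ifKO mouse 1, the values were −0.31 for Pdzd2 and 0.27 for Plk5, neither past the threshold. Without control mouse 3, the value for Pdzd2 was −0.31. With length and GC offsets they were −0.28 and 0.37, and with 1 surrogate variable −0.21 and 0.21. The direction of both genes was the same in all 17 alternative fits, which ranged from −0.64 to −0.21 for Pdzd2 and from 0.21 to 0.69 for Plk5.

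The 300-base promoters of these 2 genes, the markers with the largest changes in opposite directions, are shown from 250 bases before to 50 bases after the RefSeq start (build GRCm38.p6). Capitals mark each match to the GC box CCCCGCCC or its reverse complement GGGCGGGG. The Plk5 promoter is at chr10:80356209-80356508 on the plus strand, and the Pdzd2 promoter at chr15:12739843-12740142 on the minus strand, both printed 5′ to 3′ along the gene.
Plk5: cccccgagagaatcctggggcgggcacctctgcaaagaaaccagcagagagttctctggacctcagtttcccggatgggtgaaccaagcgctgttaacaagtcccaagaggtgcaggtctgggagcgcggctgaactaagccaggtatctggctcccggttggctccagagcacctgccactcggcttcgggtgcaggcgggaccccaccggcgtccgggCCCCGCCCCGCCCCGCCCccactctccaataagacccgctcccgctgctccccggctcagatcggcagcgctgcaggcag
Pdzd2: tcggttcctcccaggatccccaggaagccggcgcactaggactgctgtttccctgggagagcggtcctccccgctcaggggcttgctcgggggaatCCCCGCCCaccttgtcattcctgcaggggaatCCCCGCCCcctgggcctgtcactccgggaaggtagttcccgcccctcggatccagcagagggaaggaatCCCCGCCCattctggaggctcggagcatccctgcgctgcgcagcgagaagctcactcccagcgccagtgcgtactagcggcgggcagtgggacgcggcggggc
Both sequences hold 3 matches, which overlap each other in Plk5 and are spread out in Pdzd2. Their GC contents are 66.7% and 68.7%, above the median of 52.7% over all promoters. Of the 8 markers, 7 had a promoter in the RefSeq table, with 2 starts for Prox1, and Calb1 had none there. A GC box was found in 5 of these 8 promoters (both of Prox1 and those of Dsp, Pdzd2 and Plk5) and in 17.6% of all 32851 promoters, and it was chosen as a motif after the sequences were seen. The core letters TGACG of the cAMP response element, the element bound by CREB, a partner of p300, were found on either strand in 0 of 8 marker promoters and in 20.8% of all promoters. The full site TGACGTCA was found in 0 of 8 and in 1.79%. The TATA box letters TATAAA, again on either strand, were found in promoters of Prox1 and Tdo2 and in 13.6% of all. Thus promoters with the GC box letters belonged both to the marker with the highest and to the marker with the lowest fold change.

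Calb1 (ENSMUSG00000028222, chromosome 4, 15881264 to 15908064 on the plus strand) encodes calbindin, a calcium buffer that fills the soma and dendrites of mature granule cells. It had 3936, 4398 and 3446 normalized counts in control against 4125, 3561 and 3716 in p300-ifKO mice. The p300-ifKO mice all lay inside the control range. The log2 fold change was −0.047 (95% interval −0.32 to 0.23), a fold of 0.97 with an interval of 0.80 to 1.17. With length and GC offsets its direction turned, to 0.20, and it was also above 0 without control mouse 2, at 0.044. It was −0.15 with 1 surrogate variable and −0.13 without control mouse 3.

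Stxbp6 (ENSMUSG00000046314, chromosome 12, 44852484 to 45074709 on the minus strand) encodes amisyn, a syntaxin-binding protein that acts on vesicle fusion. The control mice had 3016, 3479 and 3016 normalized counts and the p300-ifKO mice 2805, 3008 and 2761. Each p300-ifKO mouse was below each control mouse, but mouse 2, at 3008, lay within a few counts of control mice 1 and 3. The log2 fold change was −0.15 (SE 0.12, unadjusted p 0.215 in DESeq2), and it was −0.075 without control mouse 2. With length and GC offsets it was −0.057. Scaling by TMM factors in place of size factors made the groups overlap.

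Tdo2 (ENSMUSG00000028011, chromosome 3, 81957090 to 81976202 on the minus strand) encodes the tryptophan dioxygenase that opens the kynurenine pathway of tryptophan breakdown. It was the lowest of the 8 markers, with 183, 235 and 182 normalized counts in control against 206, 184 and 190 in p300-ifKO mice. Control mouse 2 stood above the other five, which included all p300-ifKO mice. For the log2 fold change the value was −0.049 (95% interval −0.42 to 0.33). It turned to 0.058 with length and GC offsets and to 0.086 without control mouse 2, and was −0.13 with 1 surrogate variable and −0.11 without control mouse 3.

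Lct (ENSMUSG00000026354, chromosome 1, 128284756 to 128328318 on the minus strand) encodes lactase, best known as the lactose-digesting enzyme of the intestine. Its control mice had 837, 1002 and 1002 normalized counts and its p300-ifKO mice 1174, 1035 and 1037, so that every p300-ifKO mouse was above every control mouse. The means were 947 ± 95.3 and 1082 ± 79.8 (SD, n = 3). The difference was 0.19 on the log2 scale (SE 0.14, unadjusted p 0.173 in DESeq2), or 1.14-fold. Values ranged from 0.11, without control mouse 1, to 0.25, with length and GC offsets, over the 17 alternative fits.

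Groups that did not overlap were thus found for 3 of 8 markers (37.5%), Plk5 and Lct higher and Stxbp6 lower, against 6.64% of all genes tested. Among genes with a mean of at least 100 normalized counts the share was 6.58%, made up of 3.57% higher and 3.01% lower in p300-ifKO mice. Under TMM factors there were 2, Plk5 and Lct, and with length and GC offsets 2, Plk5 higher and Pdzd2 lower. The share over all genes was not computed under those scalings. Plk5 was the marker whose groups stayed apart under all 3 scalings of the same libraries. Its gap was narrow, with 781 against 786 normalized counts under size factors.

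**Figure D2:**
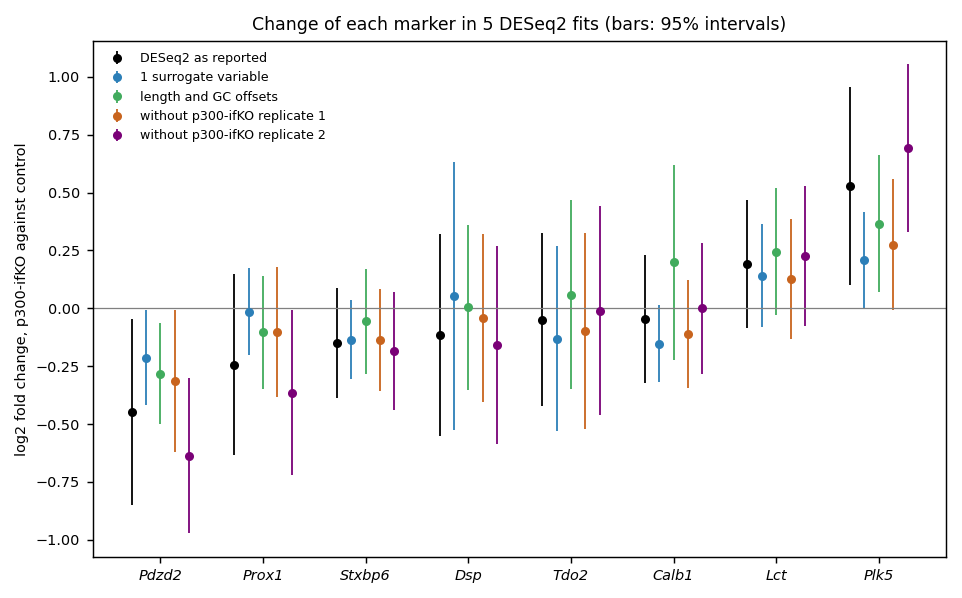
Log2 fold changes of the 8 markers, p300-ifKO against control, in 5 DESeq2 fits, with bars giving 95% intervals. The markers are ordered by the fold change of the reported fit (black). The estimates for Prox1, Pdzd2 and Stxbp6 lie below 0 and those for Plk5 and Lct above it in every fit shown. Those for Dsp, Tdo2 and Calb1 lie on both sides of 0, and the bars of Lct and Stxbp6 include 0 throughout.

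The markers were compared in level per kilobase of exon, since longer transcripts give more reads. Calb1 was highest, with 797 ± 74.2 normalized counts per kilobase (SD over 6 mice), followed by Stxbp6 with 569 ± 48.0. Plk5 came next at 326 ± 96.4 and Prox1 at 263 ± 50.1. Then came Lct with 158 ± 16.8 and Dsp with 126 ± 25.7, and the lowest were Pdzd2 with 66.8 ± 15.9 and Tdo2 with 50.7 ± 5.42. Within 3 of these neighbouring pairs, Plk5 and Prox1, Lct and Dsp, and Pdzd2 and Tdo2, the ranges over the mice overlapped, and the first gene was above the next in 5 of 6 mice. The other neighbours kept their order in 6 of 6 mice without overlap.

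Mice did not rank alike from marker to marker. Control mouse 3 was highest for Prox1, Dsp and Pdzd2 and lowest for Calb1, Tdo2 and Plk5. In p300-ifKO mouse 1 the reverse was seen in part, since it was highest for Lct and Plk5 and lowest for Prox1 and Pdzd2. Control mouse 2 was highest for Calb1, Tdo2 and Stxbp6. The 3 markers that were highest in control mouse 3 are also the 3 with the longest exonic sequence, at 8390, 9659 and 18419 bases. Plk5, with 2678 bases, has the shortest.

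Change and exonic length were therefore set side by side. Spearman's rho between log2 fold change and length was −0.74 across the 8 markers and −0.62 across the 12252 genes with a mean of at least 100 normalized counts, as a description over genes, which are not independent. Across the 8 markers, rho between length and deviation from the mean was 0.12, −0.071 and 0.95 in control against −0.81, 0.86 and −0.43 in p300-ifKO mice. These signs matched those of all genes in each library but control mouse 2. Relative to the median fold change of genes in the same 1 of 10 bins of length, Plk5 was higher by 0.36 and Lct by 0.24, and Pdzd2 was at −0.26. The other 5 markers lay between −0.12 and 0.018 of that median. Across the 8 markers, rho between fold change and length was again −0.74 with length and GC offsets, although Prox1, Pdzd2 and Plk5 were closer to 0 in that fit, and it was −0.31 with 1 surrogate variable. The part of the length trend in the marker values was not tested.

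**Figure D3:**
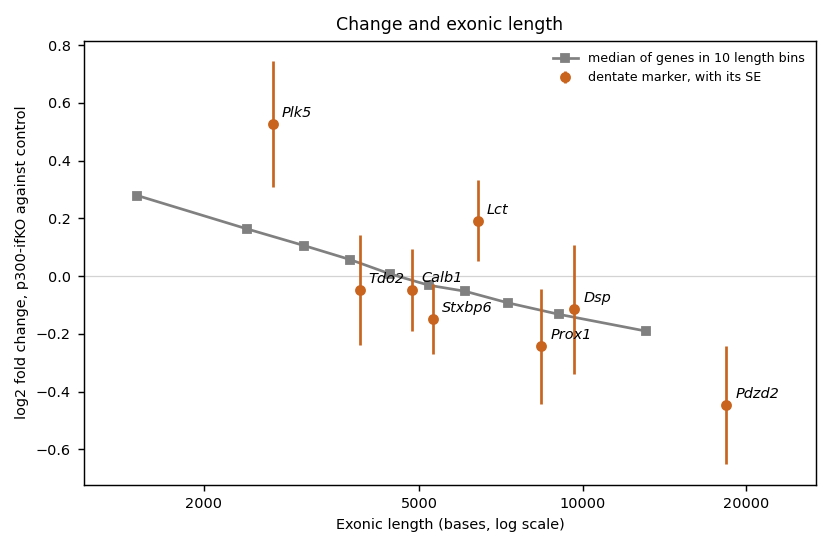
Log2 fold change of each marker (orange, with its SE) against exonic length in bases on a log axis, with the median log2 fold change of all genes in 10 bins of length (grey squares). The grey medians run from positive for short to negative for long genes, and the markers follow the same trend, with Plk5 and Lct above the medians and Pdzd2 below them.

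The 8 markers were averaged into a level per mouse, the mean over the markers of the log2 deviation of each from its own mean over the 6 libraries, with a pseudocount of 1. This level was −0.13, 0.10 and 0.086 in control against −0.022, 0.0016 and −0.041 in p300-ifKO mice. The p300-ifKO mice lay inside the control range, with means of 0.020 ± 0.13 and −0.020 ± 0.021 (SD, n = 3). From the lowest to the highest mouse the level spanned 0.23, or 1.18-fold. In p300-ifKO mouse 1 the near-zero level was a balance of markers that deviated by −0.52 (Pdzd2) to 0.68 (Plk5), and it was −0.12 without Plk5 and 0.049 without Pdzd2. With length and GC offsets it was 0.17 in that mouse, the highest of the 6.

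The dentate level was set against the CA1 pyramidal cell level, made in the same way from 6 CA1 markers, which was 0.20, −0.012 and 0.010 in control against −0.22, 0.10 and −0.083 in p300-ifKO mice. The difference, dentate minus CA1, was −0.33, 0.12 and 0.075 in control against 0.20, −0.098 and 0.042 in p300-ifKO mice. Control mouse 1 had the highest CA1 and the lowest dentate level, and p300-ifKO mouse 1 the lowest CA1 level. In control mouse 1, Dsp (−0.42), Lct (−0.27) and Plk5 (−0.25) were furthest below their means, and 3 markers were above theirs. The further granule cell list described below was at 0.034 in that mouse and lowest in p300-ifKO mouse 1, at −0.17. The r of a marker with the level of the others ran from −0.61 (Plk5) to 0.61 (Dsp). Whether the dentate level measures the granule cell content of a library was not tested. The group means of the difference were −0.047 ± 0.25 and 0.047 ± 0.15 (SD, n = 3), closer than the spread within either group.

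**Figure D4:**
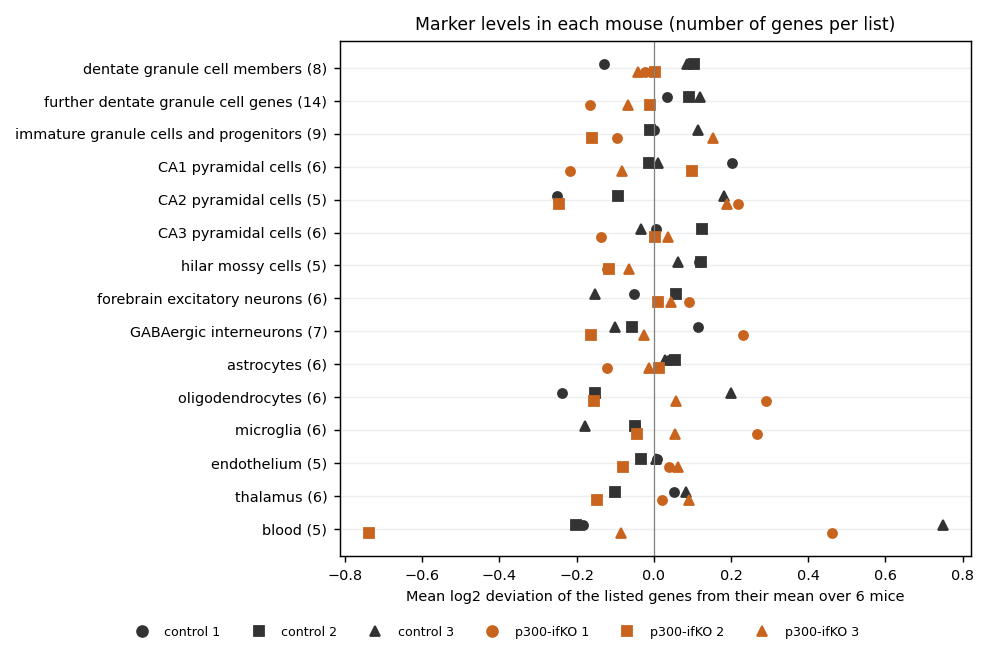
Level of each marker list in each mouse, as the mean log2 deviation of its genes from their own means over the 6 mice, with the number of genes in parentheses. Control mice are black and p300-ifKO mice orange, and the symbol gives the replicate number. The dentate markers span 0.23, endothelium (0.14) and astrocytes (0.18) span less, thalamus, excitatory neurons and mossy cells about as much (0.24), and CA1 (0.42) and blood (1.49) more, and the choroid plexus list, which spans 2.25, is left out of the plot.

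Other genes of granule cells were read from a list of 14. None was called in DESeq2 or edgeR, 3 had a positive and 11 a negative log2 fold change, and the median was −0.089, near the −0.082 of the 8 markers. At an unadjusted p under 0.05 in DESeq2 there was 1, Trhr, a receptor for thyrotropin-releasing hormone, with 317, 173 and 281 normalized counts in control against 97.7, 174 and 200 in p300-ifKO mice (log2 fold change −0.71, unadjusted p 0.0251). This 1 of 14 stands beside 2.33% of genes with a mean of at least 100 normalized counts. Without p300-ifKO mouse 1 the Trhr value was −0.46, and with 1 surrogate variable −0.43. The groups overlapped at control mouse 2 and p300-ifKO mice 2 and 3. Next lowest was C1ql3, a secreted synaptic organizer, at −0.60, which had 1434, 1438 and 1493 normalized counts in control against 503, 1454 and 923 in p300-ifKO mice. As for Pdzd2, p300-ifKO mouse 2 was at the control level and mice 1 and 3 were below it. Without that mouse, C1ql3 was the 1 gene of the 14 that passed, at −1.03 (adjusted p 0.00343 in DESeq2), where 7.9% of all genes with an adjusted p passed. Without p300-ifKO mouse 1, C1ql3 was at −0.29, and with 1 surrogate variable at −0.23. It is a short transcript, of 2535 exonic bases. Then came Rfx3, a transcription factor, at −0.31, which was −0.49 without p300-ifKO mouse 2, −0.12 without p300-ifKO mouse 1 and −0.061 with 1 surrogate variable. The highest of the list were Fam163b and Npnt, both at 0.19, and Lrrtm4, a postsynaptic adhesion gene of granule cells, at 0.13. Fam163b was at 0.32 without p300-ifKO mouse 2, 0.0075 without p300-ifKO mouse 1 and −0.027 with 1 surrogate variable, so its direction was not stable. Lrrtm4 was at 0.23, 0.072 and 0.0066 in the same fits, whereas Npnt stayed between 0.16 and 0.24 in these fits and with offsets.

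The level over these 14 genes was 0.034, 0.092 and 0.12 in control against −0.17, −0.0099 and −0.068 in p300-ifKO mice, and so did not overlap between the groups, unlike that of the 8 markers. With length and GC offsets it remained apart, at 0.013 to 0.10 against −0.058 to −0.044. Both lists were made for the same cell type, but how specific the 14 genes are to it was not tested. Whether the difference between the lists exceeds the error was not tested either. The levels of 4 of all 16 marker lists did not overlap between the groups. The others were the lists of hilar mossy cells and astrocytes, both lower in p300-ifKO mice, and that of microglia, which was higher. The astrocyte list had 2 positive and 4 negative log2 fold changes, and the microglia list 4 positive and 2 negative. With offsets, the astrocyte list overlapped. Mossy cells are targets of granule cells in the hilus. All 5 of their markers had negative fold changes, from −0.48 for Calcrl to −0.033 for Ajap1, as did 17932 of the 32773 genes tested. None of the 5 had an unadjusted p under 0.05 in DESeq2, and Calb2 among them is also on the list of immature granule cells. Calcrl had 88.1, 241 and 182 normalized counts in p300-ifKO mice. The level of the mossy cell list was between 0.063 and 0.12 in the control mice and between −0.12 and −0.063 in the p300-ifKO mice. Of the 106 entries of the 16 lists, DESeq2 and edgeR called 0, and 9 had an unadjusted p under 0.05 in DESeq2. This stands beside 1.32% of all genes tested and 2.33% of those with a mean of at least 100 normalized counts.

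Genes of immature granule cells and their progenitors, a list of 9, ran from −0.32 for Dpysl3 to 0.84 for Eomes, which had between 1.99 and 12.9 normalized counts, with 2 positive and 7 negative and a median of −0.087. Markers of tissue next to the hippocampus were uneven between mice. The choroid plexus gene Ttr had 646, 118 and 2804 normalized counts in control against 827, 908 and 4488 in p300-ifKO mice, the highest fold change of its list. The lowest was that of Aqp1, at −0.13. The summed level of the 6 choroid plexus genes was between 749 and 3777 normalized counts in control and between 1390 and 5479 in p300-ifKO mice, and none of them was at 0 in any library. The 6 thalamus markers were more even, at 2058 to 2385 and 2071 to 2343. The part of either tissue in the dentate values was not tested.

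Of 12245 other genes with a mean of at least 100 normalized counts, those whose log2 values were most like the dentate level over the 6 libraries were Mfsd8 (Pearson's r 0.99), Hcn3 (0.98), Gpsm2 (0.96), Tars (0.96) and Srpr (0.95). With 6 libraries and this many genes, values this high are a description only, and all 5 varied little, with SDs of 0.037 to 0.068 on the log2 scale. Mfsd8 had 617, 698 and 690 normalized counts in control against 652, 656 and 636 in p300-ifKO mice, lowest in control mouse 1 as the dentate level was. No gene of the further dentate list was among them, and the most like of these, Stra6, had an r of 0.64 and ranked 333.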

How the data were processed

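Per the labels and methods, the authors trimmed single-end 50 bp reads with Trim Galore, aligned them to GRCm38 with STAR 2.6.1, kept reads with a mapping quality above 10 and counted exonic reads per Ensembl gene (release 99) with Rsubread. The deposited values are raw counts, and no strand setting is stated. Identifiers were matched to a gene annotation of the same build (99.6% of genes). Unused per-sample columns numbered 0.

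p300-ifKO was compared with control by the two-sided Wald test of DESeq2 1.42.0 (R 4.3.3), the tool of the study in another version, without covariates, with Benjamini-Hochberg adjustment over 32773 genes. Alternatives were edgeR 4.0.16, limma-voom 3.58.1, TMM factors, filters, a threshold of 0.1, a replicate block, 1 surrogate variable (sva 3.50.0), smooth length and GC offsets (mgcv 1.9.3) and leaving out each library. The DESeq2, edgeR and limma-voom fits were tested on simulated data without a length or GC trend, and the other fits were not.

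The 8 markers, the other marker lists and the offset and surrogate variable fits were chosen with earlier results of these data known. The other genes named were, for the 14 further granule cell genes, those with an unadjusted p under 0.05 and the 3 highest and 3 lowest, for other lists the highest and lowest, and the 5 most like the dentate level. Intervals are 95% Wald intervals from DESeq2. Each library came from a separate mouse, so the spread includes differences between mice. The comparisons of overlap between groups under other scalings, for markers and for lists, were added after seeing the data.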

Additional observations from a re-analysis of the deposited data

How the results depend on the processing

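The direction and the call of Prox1, Stxbp6 and Lct were the same in the 17 alternative fits of each. With length and GC offsets, the log2 fold change turned for Dsp (0.0041), Calb1 (0.20) and Tdo2 (0.058), and the median of the 8 markers was 0.031. With 1 surrogate variable it turned for Dsp (0.054). Over fits without 1 library, the range was −0.31 to 0.11 for Dsp, −0.13 to 0.044 for Calb1, −0.11 to 0.086 for Tdo2, −0.64 to −0.31 for Pdzd2 and 0.27 to 0.69 for Plk5. The fit without p300-ifKO replicate 2 put Calb1 at 0.00047, Pdzd2 at −0.64 and Plk5 at 0.69. In these fits between 0 and 2 of the 8 markers and between 0 and 1 of the 14 further genes were called. The cause was not tested.

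The dentate level of p300-ifKO replicate 1 was 0.17 with offsets, 0.038 without Prox1, 0.0029 without Dsp, 0.049 without Pdzd2, −0.056 without Lct and −0.12 without Plk5. That of replicate 2 was −0.071 with offsets, and that of replicate 3 was −0.0058 without Pdzd2 and −0.070 without Plk5.

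Same-numbered mice correlated at 0.27, −0.28 and 0.13 in their deviations from the group means. These values cannot show whether the replicate numbers pair the mice. Deviations within a group depend on each other, and the libraries differed by gene length. With the replicate block, DESeq2 called 4 genes in all and 0 of the 8 markers, with log2 fold changes of −0.46 for Pdzd2 and 0.49 for Plk5, and a median of −0.060 over the 8. With 3 mice a group, the 95% interval of the Prox1 log2 fold change ran from −0.63 to 0.15 in the fit reported, and that of Tdo2, the marker with the fewest counts, from −0.42 to 0.33.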
